A study of Mus musculus with 14 samples.

Results

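The genes described here were 8 markers and regulators of the oligodendrocyte lineage: Pdgfra, Cspg4, Olig1, Olig2, Sox10, Nkx2-2, Nkx6-2 and Gpr17. They were chosen by symbol, and 7 of the 8 were found among the 19215 genes with RNA-seq values. The RNA level of Sox10 was not analysed here. None of the 13189 cassette exons (internal exons that a transcript either includes or skips) carried the gene identifier of any of the 8 genes (0 exons), so no inclusion rate is given. NOVA CLIP tags were counted on all 8 genes.

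The spinal cord of mice was measured in 14 libraries. RNA-seq of poly(A) RNA from whole spinal cord (WSC) came from 1 male and 1 female mouse of 12 weeks in a mixed B6/SJL background, and both carried the human wild-type SOD1 transgene (Tg(SOD1)2Gur/J). CLIP, in which RNA crosslinked to a protein is precipitated with it and sequenced as short tags, was done on spinal cord of C57BL/6 mice of 3 months. The MN CLIP libraries came from hemizygous mice of Chat:GFP-Nova lines #6 and #17, with 4 libraries per line, each from the pooled cords of several mice. In these mice GFP-tagged NOVA2 (its long isoform) is expressed under the promoter of Chat, the gene of the enzyme that makes acetylcholine, so that anti-GFP antibodies collect RNA bound in cholinergic cells, chiefly motoneurons (MNs). The 4 WSC CLIP libraries each came from the cord of a single wild-type mouse and used an anti-Nova serum against endogenous NOVA1 and NOVA2 in the whole cord. The antibody, the protein, the genotype and the pooling therefore changed together between the MN and WSC libraries and cannot be told apart.

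Oligodendrocytes, which wrap axons in myelin, arise from precursor cells (OPCs) that remain in the adult spinal cord. OPCs are recognised by the receptor PDGFRA and the proteoglycan NG2, encoded by Cspg4. OLIG2 and SOX10 act throughout the lineage, and GPR17 marks a transient stage between the precursor and the myelinating cell. Some of these genes are also active elsewhere, Pdgfra in fibroblasts, Cspg4 in pericytes and Sox10 in Schwann cells. NOVA proteins are RNA-binding proteins known for their role in neurons, and they bind clusters of 4-base motifs, which are TCAT or TCAC as well as CCAT or CCAC.

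The RNA-seq libraries held 72006019 reads on genes in the male and 65625173 in the female. The MN CLIP libraries held 65961 to 871804 tags and the WSC CLIP libraries 2213104 to 6095995, so that a rare tag was far less likely to be seen in an MN library. A count of 0 in an MN library allowed up to 3.44 to 45.5 CPM (tags scaled to 1000000 tags of the library). These limits and the intervals of percentages given below cover counting error only. Of the tags on genes, 35.5 to 47.8% were exonic in the MN libraries and 61.1 to 66.2% in the WSC libraries. The CLIP libraries of a group are labelled as biological replicates.

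The sequences under the main tag clusters of Olig1, Sox10 and Olig2 are shown first, to let the NOVA motifs in them be seen. The coding stretches were the places of highest coverage of their genes in the WSC libraries and the UTR stretch was a lower maximum with several motifs, so that all were chosen by their values. The sequences are those of the mm9 genome on the strand of the gene, from 5′ to 3′, with the NOVA motifs in capitals. The first lies in the coding sequence of Olig1 (chr16:91270248-91270282, + strand, within the gene at chr16:91270014-91272184), the next lies in its 3′ UTR (chr16:91271740-91271769), and the others lie in the coding sequences of Sox10 (chr15:78986564-78986607, - strand) and Olig2 (chr16:91227113-91227170, + strand).
Olig1 coding: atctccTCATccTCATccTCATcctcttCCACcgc
Olig1 3′ UTR: tccaaCCACgttCCATgCCATcggtgttcg
Sox10 coding: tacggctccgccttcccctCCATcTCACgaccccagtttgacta
Olig2 coding: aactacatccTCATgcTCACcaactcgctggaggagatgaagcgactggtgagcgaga
The Olig1 coding stretch held 4 motifs in 35 bases. As many were found in 0.410% of 972082 coding stretches of that length in the genome, with only the sense strand searched. The Olig1 3′ UTR stretch, which was picked for its motifs, held 3 in 30 bases. Of the other 3′ UTR maxima of Olig1, among them the highest, each held 1 motif, and 36.4% of 825511 UTR stretches of that length held at least 1. For the Sox10 and Olig2 stretches, with 2 motifs each, the shares were 17.7% and 26.6%, so that a motif pair was common in coding sequence.

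Among the lineage transcription factors with RNA-seq values, which leave out Sox10, Olig1 had the highest RNA level. Olig1, a basic helix-loop-helix factor needed for myelin repair, was at 113 RPKM in the male and 135 RPKM in the female library (reads per kilobase of exon, scaled to 1000000 reads on genes, 124 ± 15.1, SD, n = 2). Its mean was above that of 97.8% of all genes. Olig2, the related factor that specifies the lineage, was at 25.9 and 30.8 RPKM (28.4 ± 3.44). The ratio of Olig1 to Olig2 was 4.38 in each library, although both genes were higher in the female library.

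Of the homeodomain factors, Nkx6-2, which acts in mature oligodendrocytes and in the organisation of myelin, was at 16.1 RPKM in the male and 18.7 RPKM in the female library (17.4 ± 1.80, SD, n = 2). Nkx2-2, which promotes the step from precursor to oligodendrocyte, was at 6.80 and 7.97 RPKM (7.38 ± 0.824). Nkx6-2 thus stood above Nkx2-2 in both libraries, by more than their spread.

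Of the receptors and surface proteins of OPCs, Gpr17, an orphan G protein-coupled receptor, was at 11.6 RPKM in the male and 7.96 RPKM in the female library (9.77 ± 2.55, SD, n = 2). Pdgfra, the receptor through which PDGF drives OPC division, was at 7.54 and 8.55 RPKM (8.05 ± 0.718). Cspg4 was at 1.69 and 1.56 RPKM (1.62 ± 0.0919), the lowest of the 7 genes and above 41.6% of all genes. In order of their means, Olig1, Olig2, Nkx6-2 and Gpr17 were separated from each other in every library. The ranges of Gpr17, Pdgfra and Nkx2-2 overlapped, so that their order is not resolved, and Cspg4 lay below them by 4.55-fold. In bulk tissue, fewer cells of a type and less RNA per cell cannot be told apart.

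**Figure D1:**
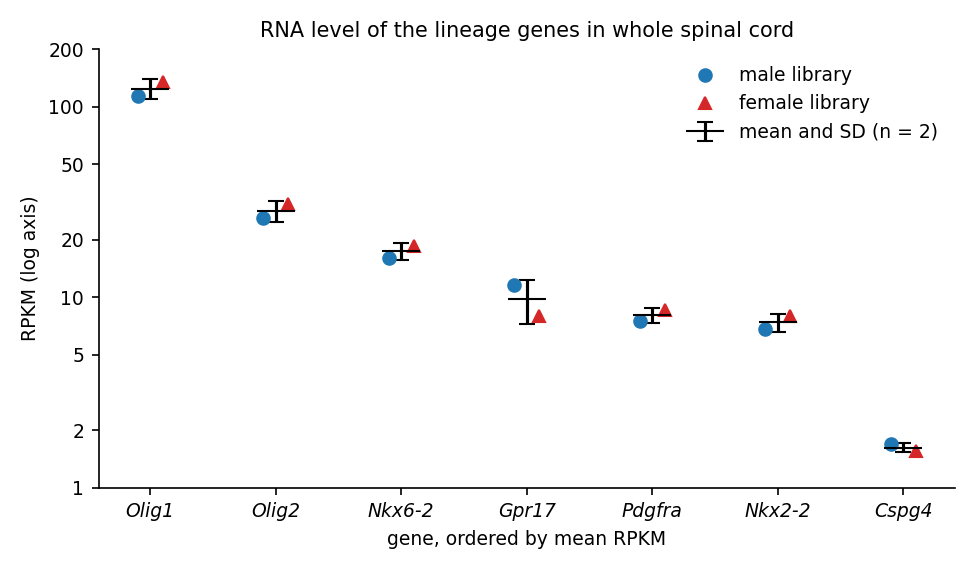
RPKM (log axis) of the 7 genes with RNA-seq values in the male (circles) and female (triangles) WSC libraries, with the mean and SD of n = 2. Olig1 at 113 and 135 RPKM stood above the other genes, the points of Gpr17, Pdgfra and Nkx2-2 lay at like heights, and Cspg4 was lowest.

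Between the 2 RNA-seq libraries, 5 of the 7 genes were higher in the female and 2 in the male. With 1 library of each sex this compares 2 mice and no test was made. The log2 difference (female minus male, on RPKM + 0.1) lay between 0.18 and 0.25 for Pdgfra, Nkx6-2, Nkx2-2, Olig2 and Olig1, against a median absolute difference of 0.14 over the 11940 genes with a mean of at least 1 RPKM. Larger differences than that of Olig1 were found in 24.1% of these genes. Cspg4 differed by -0.11.

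Gpr17 went the other way and further, with a difference of -0.53, which 4.44% of genes exceeded. A difference of at least 1.5-fold was reached by none of the 7 genes (0 genes) and by 417 of 11940 genes (3.49%). Gpr17 lies within Lims2, a gene on the opposite strand. The RNA-seq kit is not described as stranded, so reads where exons of 2 genes overlap cannot be assigned by strand. Lims2 was at 7.69 RPKM in the male library and differed by 0.06 on the same scale. Nkx6-2 overlaps the end of Inpp5a in the same way, which was at 19.0 and 20.1 RPKM, and Nkx2-2 overlaps transcripts of the opposite strand.

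**Figure D2:**
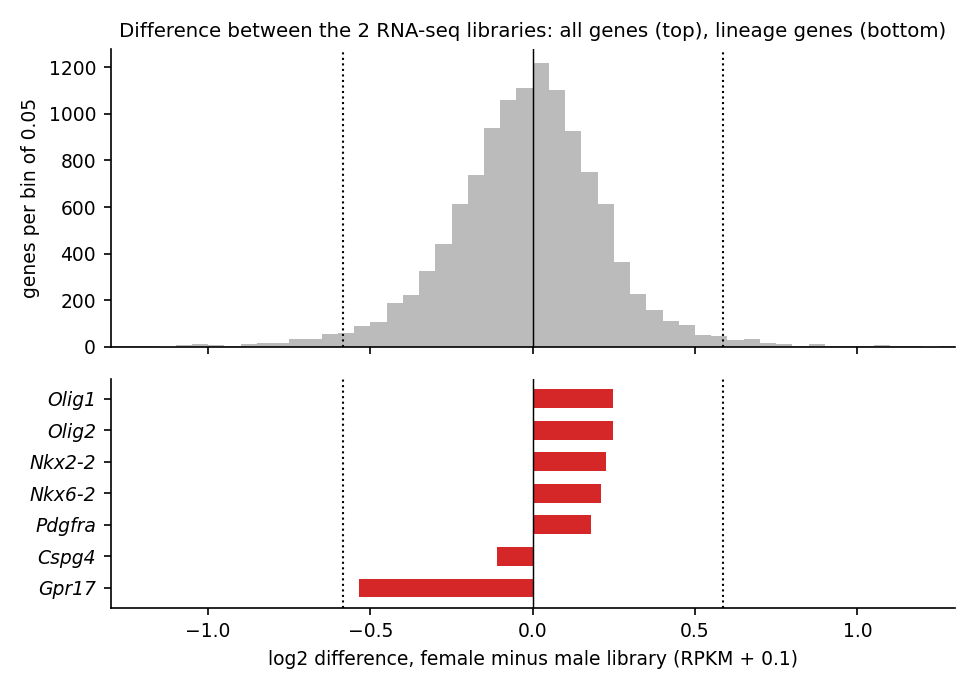
Log2 difference between the female and male RNA-seq libraries (RPKM + 0.1) for all genes with a mean of at least 1 RPKM (top, number of genes per bin) and for the 7 lineage genes (bottom, 1 bar each); dotted lines mark 1.5-fold. The bars of 5 genes reach 0.18 to 0.25 and that of Gpr17 reaches -0.53, inside the dotted lines.

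Genes that act with these members gave the following levels. Among 19 other transcription factors of the lineage, 16 reached 1 RPKM, with Id2 (75.8 ± 16.0 RPKM), an inhibitor of helix-loop-helix factors, and Id4 (34.2 ± 0.583 RPKM) highest and Prrx1 (0.760 ± 0.114 RPKM) lowest (SD, n = 2). Of the PDGF ligands and the second PDGF receptor, Pdgfa, the ligand of PDGFRA, was highest (37.9 ± 0.508 RPKM), followed by Pdgfd (17.5 ± 2.98 RPKM), and Pdgfc was lowest (1.20 ± 0.106 RPKM). Pdgfa was 4.97 times as abundant per kilobase as its receptor in the male and 4.47 times in the female library.

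All 15 OPC surface and matrix genes reached 1 RPKM. Gpr37l1 (212 ± 5.71 RPKM) and the proteoglycan gene Bcan (80.9 ± 1.23 RPKM) were highest, both of which astrocytes also express, and the cadherin gene Pcdh15 was lowest (1.29 ± 0.132 RPKM). Of 12 genes of differentiating oligodendrocytes, 11 reached 1 RPKM, led by Bcas1 (300.1 ± 24.6 RPKM) and the deacetylase gene Sirt2 (164 ± 13.8 RPKM), with Bmp4 lowest (0.475 ± 0.0875 RPKM). The list of 20 receptors and signals was led by Lpar1 (53.6 ± 0.404 RPKM) and Fgfr3 (51.9 ± 5.81 RPKM), and Chrm1 was lowest (0.137 RPKM). All 13 myelin genes reached 1 RPKM, with Aspa lowest (16.8 RPKM) and Mbp, which encodes a protein that compacts myelin, at 2132 RPKM. The median difference between the libraries was 0.21 for the 7 members, 0.14 for the myelin genes, -0.07 for the other transcription factors and -0.05 for the OPC surface genes, beside -0.01 over all 11940 genes. It was larger for genes of other groups, 0.35 for the 5 PDGF genes, 0.31 for 8 motoneuron markers, all 8 of them higher in the female, and 0.28 for 7 fibroblast and meningeal markers.

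Markers of other cells in which some of these genes are active were also detected. The 7 fibroblast and meningeal markers summed to 14.4 RPKM in the male and 19.2 RPKM in the female library, with all 7 higher in the female. The highest was Dcn (8.87 RPKM), and 3 of the 7 reached 1 RPKM. The 6 pericyte markers summed to 31.9 and 26.5 RPKM, of which Rgs5 made up the greater part. Pdgfra was higher in the female library (by 0.18 on the log2 scale), as the fibroblast markers were. So were Nkx6-2, Nkx2-2, Olig2 and Olig1, by 0.21 to 0.25. Cspg4 was higher in the male library, as the pericyte sum was, but 2 of the 6 pericyte markers were higher in the female. The part of these cells in the levels of Pdgfra and Cspg4 was not tested. Of the 7 Schwann cell markers 4 reached 1 RPKM. Mbp (2132 RPKM), which oligodendrocytes also express, and Pmp22 (76.6 RPKM) were highest, and Prx, which acts in peripheral myelin, was lowest (0.110 RPKM).

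The WSC CLIP libraries asked which RNAs of the whole cord were bound by endogenous NOVA. Olig1 had 804 tags in these 4 libraries and each of the other 7 genes had between 7 and 110. Olig1 was at 46.9, 42.7, 45.8 and 56.9 CPM in WSC replicates 1 to 4 (48.1 ± 6.18, SD, n = 4). Sox10, the factor that activates myelin genes, was at 8.25, 6.56, 5.13 and 5.87 CPM. Each of the 8 genes had at least 1 tag in every WSC library.

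To take account of RNA abundance, the WSC tags in CPM were divided by the RNA reads of the same gene, also in CPM. The RNA-seq mice were of another background and carried the SOD1 transgene, so the ratio joins different animals. All 7 genes with RNA values lay below the median of 10996 genes (0.386). Olig1 had the highest ratio (0.178 ± 0.0229, SD, n = 4), and 31.3% of genes had a lower one. Cspg4 (0.0651), Gpr17 (0.0607), Nkx2-2 (0.0453), Pdgfra (0.0333), Olig2 (0.0273) and Nkx6-2 (0.0116) followed, with 2.86 to 14.6% of genes below them. The RNA of Olig1 thus gave 6.53 times as many tags per read as that of Olig2, its neighbour in sequence and position, with 5.82 to 7.38 times in the single libraries.

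The median ratio of the 7 genes was 0.0453. It was 0.0447 for 13 myelin genes, 0.0569 for 7 microglial markers, 0.179 for 7 astrocyte markers and 0.896 for 11 neuronal markers. For 16 other transcription factors of the lineage it was 0.331, for 15 OPC surface genes 0.464, for 11 genes of differentiating oligodendrocytes 0.594, for 5 PDGF genes 0.282 and for 19 receptors and signals 0.263. Tags in introns enter this ratio, whereas the RNA reads are exonic. With exonic tags alone the ratios of Cspg4, Pdgfra, Nkx2-2 and Nkx6-2 fell to 0.0394, 0.0229, 0.0143 and 0.0058, those of Olig1, Olig2 and Gpr17 stayed as they were, and 3.69 to 45.7% of genes lay below the 7 genes.

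**Figure D3:**
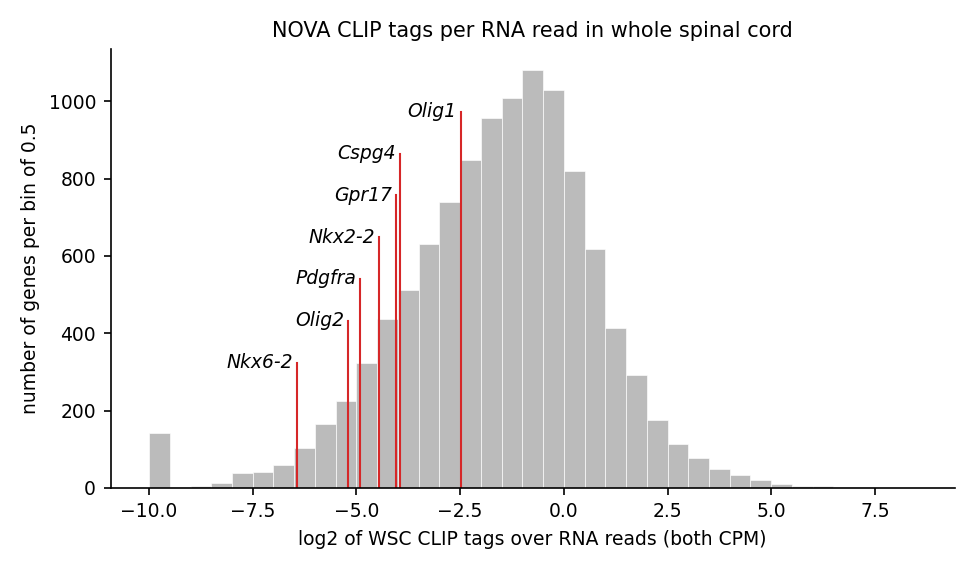
Number of genes (grey bars, bins of 0.5) by the log2 ratio of WSC CLIP tags to RNA reads, both in CPM, with red lines for the 7 lineage genes; genes below -10 are in the leftmost bar. Olig1 lies nearest to the bulk of genes, with 31.3% of genes below it, and Nkx6-2 farthest out, with 2.86% below.

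The tags of Olig1 were gathered at a few places. Of 804 WSC tags, 334 (41.5%, 95% Wilson interval 38.2 to 45.0%) overlapped the position of highest coverage, in the coding stretch with 4 motifs printed above, and they began at 42 different positions. The share was 45.9, 41.2, 38.2 and 43.7% in the 4 WSC libraries, so that no single library made the cluster. The other maxima lay in the 3′ UTR. The highest of these (position 2028 of the transcript) held 103 WSC tags, and the stretch with 3 motifs (position 1741) held 67.

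In the MN libraries 3 of 27 Olig1 tags (11.1%, 3.85 to 28.1%) overlapped the coding maximum, and all 3 came from line 6. These tags began at 2 positions. The 3′ UTR maxima at positions 2028, 1741 and 2129 held 4, 3 and 4 MN tags. Over the whole gene, 415 of 804 WSC tags (51.6%, 48.2 to 55.1%) and 4 of 27 MN tags (14.8%, 5.92 to 32.5%) lay in the coding sequence, whereas 380 WSC tags (47.3%) and 23 MN tags (85.2%, 67.5 to 94.1%) lay in the 3′ UTR. The intervals do not overlap, but they treat each tag as independent. The 334 WSC tags at the coding maximum began at only 42 positions. The site was also chosen on the WSC tags, and the comparison was made after they were seen. It is therefore given without a test.

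**Figure D4:**
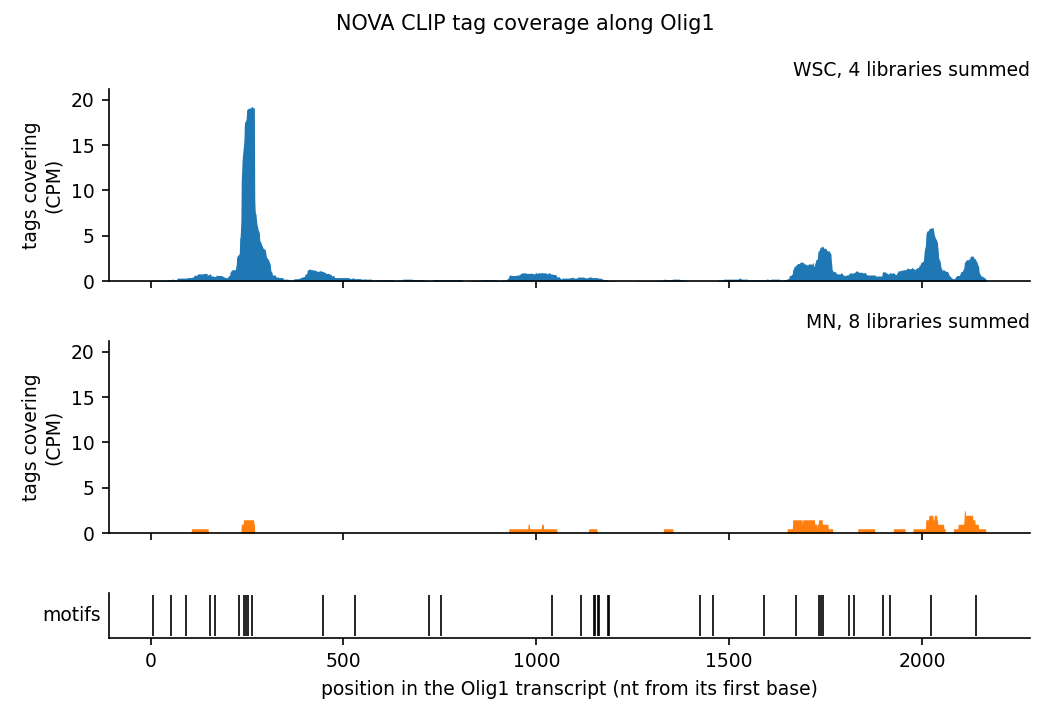
Tags covering each base of Olig1, in CPM of the summed 4 WSC libraries (top) and the summed 8 MN libraries (middle), against the position in the transcript in nt, with ticks at the starts of NOVA motifs (bottom). The high WSC maximum near position 262 was formed by 334 of 804 tags and the same place held 3 of 27 MN tags. The 3′ UTR maxima at positions 2028, 1741 and 2129 held 103, 67 and 48 WSC tags. They held 4, 3 and 4 MN tags, so that the MN counts were small at every place.

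Sox10 and Olig2 also had a WSC maximum in coding sequence, as did Gpr17, Pdgfra, Cspg4 and Nkx2-2 on 2 to 10 tags each. For Sox10 it was formed by 39 of 110 tags (35.5%, 27.1 to 44.7%), with 1 of 7 MN tags at the same place. The Sox10 share was 69.2% in WSC replicate 4 (9 of 13 tags) and 28.6 to 32.5% in the other WSC libraries. The maximum of Olig2 was formed by 12 of 31 WSC tags (38.7%, 23.7 to 56.2%), and the single MN tag of Olig2 lay elsewhere. Of all WSC tags of Sox10, 57 lay in the 3′ UTR, 51 in coding sequence and 2 in introns. The WSC tags of Gpr17 were divided between coding sequence (27 of 52) and 3′ UTR (25), and its 4 MN tags were all in the 3′ UTR. In Nkx2-2, 10 of 16 WSC tags were intronic, and in Cspg4 10 of 23.

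The comparison of MN with WSC CLIP asked which RNAs were bound more or less often by NOVA in the Chat-expressing cells than in the whole cord. Olig1 was lower in the MN libraries. It was at 9.88, 0, 14.5 and 26.4 CPM in replicates 1 to 4 of line 6 and at 15.2, 12.5, 11.0 and 11.5 in those of line 17, against 42.7 to 56.9 in the WSC libraries, and the groups did not overlap. These MN values rest on 27 tags in all, 10 of them in line 17 replicate 4. The log2 fold change (MN minus WSC) was -1.70 (SE 0.25, adjusted p = 2.02e-06, edgeR quasi-likelihood test), a 3.26-fold lower level.

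Of 4781 genes tested after the filter on low counts, 2714 were called at an FDR of at most 0.01 (56.8%), 1480 of them lower in MNs (31.0%) and 1234 higher (25.8%). A call was thus common in this comparison. Olig1 passed the filter through the WSC libraries, where it was high, and the other 7 genes did not pass. Without the filter, 21062 genes were tested and 4142 called (19.7%), 2910 of them lower (13.8%) and 1232 higher (5.85%), and Olig1 was the only one of the 8 genes called (-1.91, SE 0.27, adjusted p = 6.86e-11, edgeR). Counting exonic tags only reduced the fold change of Olig1, which has no introns, to -0.89 (SE 0.28, adjusted p = 0.00811), beside the lower exonic share of the MN libraries given above. Counting 1 tag per start position, it was -1.32 (SE 0.28, adjusted p = 4.80e-05, edgeR without the filter) against -1.91, so tags that shared a start in a library added to the difference. Away from the coding maximum, Olig1 still had 25.1 to 32.1 CPM in the WSC libraries and 0 to 17.6 in the MN libraries (-1.29, SE 0.30, adjusted p = 1.76e-04, edgeR without the filter). This last count was added after the data were seen.

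Pdgfra had a fold change of the opposite sign that did not pass the test over all libraries. It was at 2.95, 1.64, 2.30 and 2.71 CPM in the WSC libraries. In MN replicates 3 and 4 it was at 7.26 and 8.81 in line 6 and at 11.0 and 6.88 in line 17, on 12 tags in all, and in replicates 1 and 2 of both lines it was at 0. The libraries at 0 were those with short 5′ barcodes and 65961 to 159893 tags, where a count of 0 allowed 18.8 to 45.5 CPM. Over all libraries without the filter the log2 fold change was 1.25 (SE 0.51, 95% interval 0.25 to 2.26, adjusted p = 0.0532, edgeR) and did not pass the test. Within the libraries with long barcodes, 4 MN against 4 WSC, it missed the threshold without the filter as well (1.68, SE 0.56, adjusted p = 0.0147, edgeR). With the filter it was called there (1.87, SE 0.53, adjusted p = 0.00314), but it passed that filter through the MN libraries, where it was high. The long-barcode fits left out every MN library in which Pdgfra was at 0. Of 22 alternatives without the filter, all kept the sign and none passed, and the long-barcode fit had the smallest adjusted p. The value was 1.06 (adjusted p = 0.114, edgeR) on 1 tag per start position and 1.31 (0.254) on exonic tags. It was 1.32 (0.297) with line 6 alone and 1.34 (0.163) with line 17 alone. Of the MN tags 7 of 12 were intronic (58.3%, 32.0 to 80.7%), and of the WSC tags 12 of 39 (30.8%, 18.6 to 46.4%). Over all genes, too, the MN libraries were less exonic (35.5 to 47.8% of tags) than the WSC libraries (61.1 to 66.2%).

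None of the other genes was called, and the part that the low depth of the MN libraries had in this was not tested. Sox10 was between 5.13 and 8.25 CPM in the WSC libraries and at 4.84, 4.41 and 4.59 in the 3 MN libraries that held a tag (-0.96, SE 0.52, adjusted p = 0.163, edgeR without the filter). Olig2 was between 1.59 and 2.26 in WSC and had 1 tag in the MN libraries, in line 17 replicate 4 (1.15 CPM). Every WSC library was above every MN library for Olig1, Sox10 and Olig2, 3 of the 8 genes, and for 2422 of 21062 genes (11.5%). Gpr17 (-0.67, SE 0.68), Cspg4 (0.48, SE 0.78), Nkx2-2 (0.57, SE 0.89) and Nkx6-2 (0.16, SE 1.34) had overlapping groups and 1 to 4 MN tags each, with adjusted p between 0.538 and 0.932. With so few tags, the values do not settle whether these 4 genes differed in either direction.

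Both transgenic lines showed the lower level of Olig1. With the filter, the fold change was -1.42 (SE 0.37, adjusted p = 0.00212, edgeR) with line 6 alone and -1.83 (SE 0.34, adjusted p = 5.53e-05) with line 17 alone, against the same WSC libraries. Only 3 of the 4 line 6 libraries held an Olig1 tag, and with line 6 alone Olig1 passed the filter through the WSC libraries. Without the filter the values were -1.65 (SE 0.36, adjusted p = 6.37e-05, edgeR) for line 6 and -1.999 (SE 0.36, adjusted p = 9.44e-07) for line 17. The difference between the lines was -0.33 (line 17 minus line 6, SE 0.71, adjusted p = 0.980), which leaves room for a difference in either direction.

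**Figure D5:**
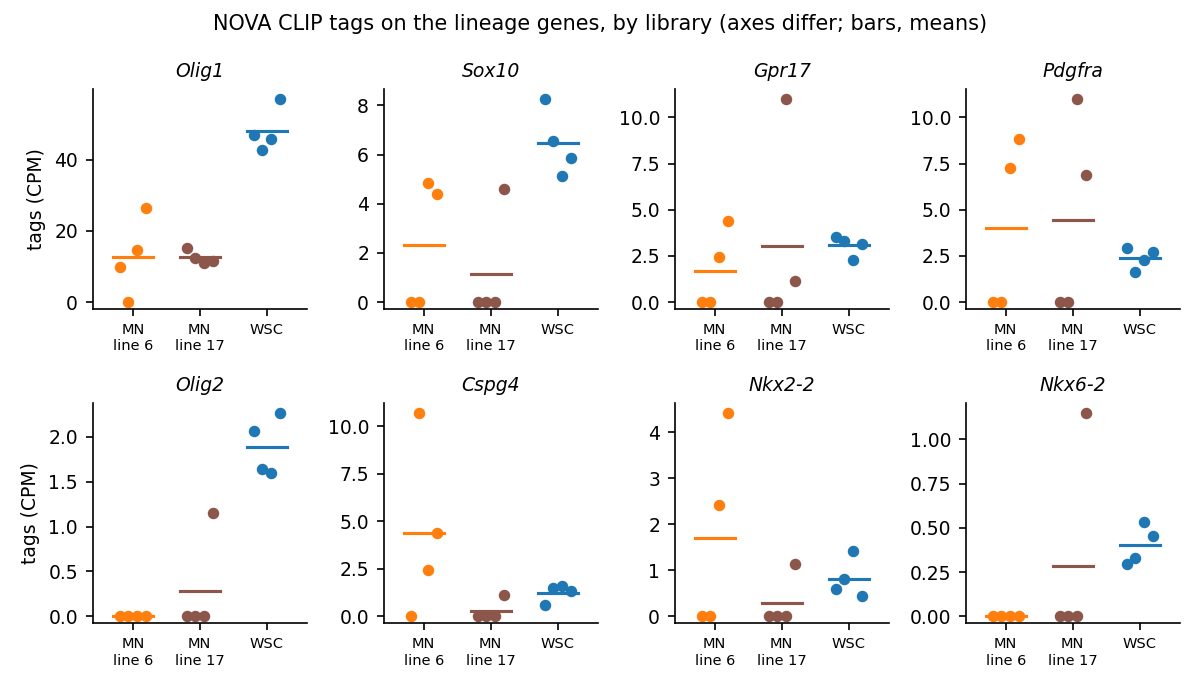
NOVA CLIP tags in CPM in each library (points) for the 8 genes, with group means as bars, in MN line 6, MN line 17 and WSC (n = 4 each); the vertical axes differ between genes. The 4 WSC points of Olig1 (42.7 to 56.9) lie above the 8 MN points (0 to 26.4), and most MN points of the other genes are at 0.

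The counts of called genes in the other lists are to be read against the 25.8% of all 4781 tested genes that were higher in MNs and the 31.0% that were lower. On exonic tags, 555 of 2992 tested genes were higher and 713 lower. With library totals, 1012 of 4781 were higher and 1706 lower. Of 7 other transcription factors tested, 2 were higher in MNs, Nfia (1.08, SE 0.11, adjusted p = 5.21e-09, edgeR) and Tcf12 (0.38, SE 0.09), and none was lower, but with library totals or exonic tags 1 was higher and 1 lower. Both PDGF ligand genes tested were higher, Pdgfd by 2.48 (SE 0.15) and Pdgfc by 1.73 (SE 0.22). Among 7 OPC surface genes 3 were higher (Pcdh15, 1.00; Tnr, 0.84; Bcan, 0.75) and 2 lower (among them Vcan, -0.81), but none of the 3 that could be tested on exonic tags was called. Of the receptors and signals 1 of 7 was higher (Bmpr1b, 1.00) and 3 were lower, among them Erbb4 (-1.04) and Lingo1 (-1.42), and on exonic tags 0 were higher and 2 lower. Of 3 tested genes of differentiating oligodendrocytes, Bcas1 was lower (-1.28) and Itpr2 (0.69) and Fyn (0.52) were higher, and the 1 that could be tested on exonic tags was not called.

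Among genes of mature glia, of 7 myelin genes 5 were lower in MNs and none higher, among them Ugt8a (-1.20), Mal (-1.18), Ermn (-0.76) and Mobp (-0.65), and all 5 astrocyte markers tested were lower, by 0.76 to 1.34 on the log2 scale. On exonic tags these calls were reduced to 1 of 7 myelin genes and 0 of 5 astrocyte markers, so that they depend on how the tags were counted. The 3 motoneuron markers tested were higher in both counts, Chat by 3.04 (SE 0.13), Chodl by 2.44 and Slc5a7 by 2.19. Of 12 neuronal markers 2 were higher and 5 lower, the latter led by Slc6a5 (-4.31), the glycine transporter of inhibitory neurons, and on exonic tags 5 were higher and 5 lower. Of 2 Schwann cell markers tested Pmp22 was higher (1.75), and no fibroblast, pericyte or microglial marker passed the filter.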

How the data were processed

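The members and all gene lists were chosen with earlier results of these data known. RNA-seq: per the study's methods, the authors trimmed paired-end reads to 74 nt, mapped them to mm9 with OLego and counted unambiguous reads with Quantas. They deposited read counts per gene, with RPKM values that the authors scaled to exon length and library total. CLIP: the authors mapped tags to mm9 with Novoalign, collapsed identical reads by barcode and deposited tag positions with a score per tag, which was not used. The notes of line 6 replicate 2 list mm10 beside mm9. Its exonic share (39.7%) lay within the range of the other MN libraries.

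Here a tag was counted in a gene (GENCODE vM1, mm9) by its midpoint and strand. Tag counts were compared with edgeR 4.0.16 (TMM, filterByExpr, quasi-likelihood, FDR of at most 0.01, 4 line 6 and 4 line 17 libraries against 4 WSC libraries), checked on simulated data. The simulation changed far fewer genes than were called here, equally in both directions, so it does not cover a comparison in which most genes differ. The SE of an edgeR fold change was its absolute value divided by the square root of the F statistic of the test. RPKM was compared as log2(RPKM + 0.1) without a test. Wilson intervals were at 95%, and a count of 0 was taken to allow 3 tags. A site ran to where coverage fell under 50% of its maximum, UTR sites were cut to 30 bases. All 8 genes were named with their values. Of the other lists the 2 highest and the lowest by RPKM were named, and up to 4 called genes with the smallest p in CLIP, while further genes were named after their values were seen. Sip1 was dropped from a list because the tables use this symbol for another gene, and Frmd4a, which has 2 annotated entries, was left out of the CLIP counts. No column of another series was used. Alternatives were DESeq2, library totals, other counting regions, no filter and leaving out libraries. No sequence of Gpr17 and no values of some list genes are reported here.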

Additional observations from a re-analysis of the deposited data

Results flagged for a closer look

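In a group of 4 libraries, 1 library stood apart from the other 3 by Dixon's criterion for 6 of the 22 groups in which the tags of a gene varied. The rate of about 1 in 20 that chance gives holds for continuous values and not for counts of 0 or 1 tag. In 5 of them it was line 17 replicate 4, the MN library with most tags (871804) and the only one of its line with a tag on the gene, so that the criterion was met by construction. It had 4.59 CPM for Sox10 (4 tags) and 1.15 for each of Cspg4, Olig2, Nkx2-2 and Nkx6-2 (1 tag each). The other was line 17 replicate 3, where 1 tag on Gpr17 gave 11.0 CPM in a library of 91058 tags.

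Tags on the strand opposite to the members were outside all comparisons. Nkx6-2 had 10 such tags in the WSC libraries, against 7 on its own strand, and 7 of the 10 were in WSC replicate 2. Inpp5a, which runs on that strand, overlaps Nkx6-2. Over the other 7 genes the WSC libraries held 0 to 3 opposite tags per gene.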

How the results depend on the processing

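The depth of the MN libraries limits these results, since 7 of the 8 genes had 12 MN tags or fewer. Olig1 kept its direction and its call under all 23 alternatives that gave a value, 7 of them fitted only without the filter, with log2 fold changes from -1.91 to -0.89 and adjusted p from 6.86e-11 to 0.00811. Intronic tags gave no value for it. The alternatives for cassette exons were not run, since there were no exons.

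The number of genes called between MN and WSC CLIP was 2714 of 4781 tested, and 4142 of 21062 without the filter. It was 1268 of 2992 on exonic tags and 757 of 2626 on intronic tags. Leaving out each library gave from 1952 of 3833 (without line 17 replicate 4) to 2954 of 5330 (without line 17 replicate 1). Correlations of same-numbered libraries ran from -0.07 to 0.19. Only 2 of 12 were over 0.1, the level asked of every pair, so the main fit used no pairing. Between line 6 and line 17 they ran from 0.02 to 0.19, and between MN and WSC libraries from -0.07 to 0.06. The replicate block gave 2256 of 4781 genes and -1.82 for Olig1. The genes past 1.5-fold between the RNA-seq libraries were 417, 190 with a pseudocount of 1 and 1623 without the minimum RPKM. The tags per RNA read on exonic tags were 0.0394 for Cspg4, 0.0143 for Nkx2-2, 0.0058 for Nkx6-2 and 0.0229 for Pdgfra.

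Without the filter, no alternative brought the other 7 genes past the threshold, but the sign turned for some. On intronic tags it turned for Cspg4 (-0.87), Sox10 (1.73), Nkx2-2 (-0.052) and Nkx6-2 (-1.78), on exonic tags for Gpr17 (0.10), and with line 17 alone for Cspg4 (-0.62) and Nkx2-2 (-0.12). Nkx6-2 turned on 1 tag per start position (-0.0079), with line 6 alone (-3.06), with the replicate block (-0.21) and without line 17 replicate 4 (-2.69). The cause was not tested. RNA levels moved by less than 1 SD under other scalings. With 1 library left out of 2 this holds for any values.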
